A study of Mus musculus with 12 samples.

Results

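Gene expression was compared between alveolar type 2 (AT2) cells from mice given bleomycin and from mice given PBS, in 6 of the 12 samples of the series. AT2-BLM (3 samples) came from Atg5 f/f mice that received 2 U/kg bleomycin (BLM) through the trachea, and AT2-PBS (3 samples) from Atg5 f/f mice that received PBS. Cells were taken at day 14 from mice on a C57BL/6 background that were 8 to 12 weeks old, and the labels give both groups the genotype wild type, since no Cre is present to delete the floxed Atg5 gene. The other 6 samples, Atg5-/- AT2-PBS and Atg5-/- AT2-BLM, carry Nkx2.1Cre, which is active in the lung epithelium as a whole and in some organs outside the lung, so that the deletion is not limited to AT2 cells. They entered only the estimate of spread and 1 comparison of responses, and no day is given for Atg5-/- AT2-PBS. AT2 cells were sorted as epithelial cells (EpCAM+) that lack CD31, CD34, CD45, CD24 and Sca-1. The groups are described as biological replicates, and whether a sample was 1 mouse or a pool is not given in the sources used here.

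AT2 cells make and recycle pulmonary surfactant, and after injury they divide and give rise to the flat alveolar type 1 (AT1) cells that form the gas exchange surface. Bleomycin cuts DNA strands, and instilled into the airways it is a standard cause of alveolar injury followed by fibrosis in mice. On the way from AT2 to AT1, cells are known to pass through a transitional state marked by keratin 8, claudin 4 and p53 targets.

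Values are FPKM, fragments scaled to transcript length and to mapped fragments, and changes are log2 differences of FPKM + 1, AT2-BLM minus AT2-PBS, which understate the change of genes with low FPKM. Of 21878 genes listed, 10675 were tested, namely those that reached an FPKM of 1 in 3 or more of the 12 samples. A gene is termed called where limma gave an adjusted p under 0.05 (Benjamini-Hochberg) with a fold change of at least 1.4. Rose and fell are used only for called genes. With 3 samples in each group the smallest two-sided p of an exact permutation test is 0.1, so differences rest on the fit across all genes.

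Between AT2-BLM and AT2-PBS, 1856 genes were called, 1398 higher in AT2-BLM (13.1% of those tested) and 458 lower (4.29%). The median change over all genes was 0.17, so the values of AT2-BLM were shifted upwards as a whole. Quantile normalization, median-ratio scaling and scaling to a common sum each removed this shift, and 449 genes higher (4.21%) and 436 lower (4.08%) were called under each of the 3 scalings as well as in the deposited values. These 885 genes are termed robust to scaling below. With quantile normalization alone the split was 675 higher and 734 lower, with median-ratio scaling 805 and 774, and with a common sum 527 and 512. The common sum includes Sftpc, listed at 112570 FPKM in AT2-BLM replicate 2 and at 0 in every other sample. With Sftpc left out of the sum, a median change of 0.09 remained, and 845 genes were higher and 475 lower. Robust to scaling refers to the sum that includes Sftpc. Before adjustment 3625 genes had a p under 0.05, and the ranges of the groups did not overlap for 4293 (40.2%). A change of at least 4-fold was found for 117 genes higher and 31 genes lower.

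**Figure D1:**
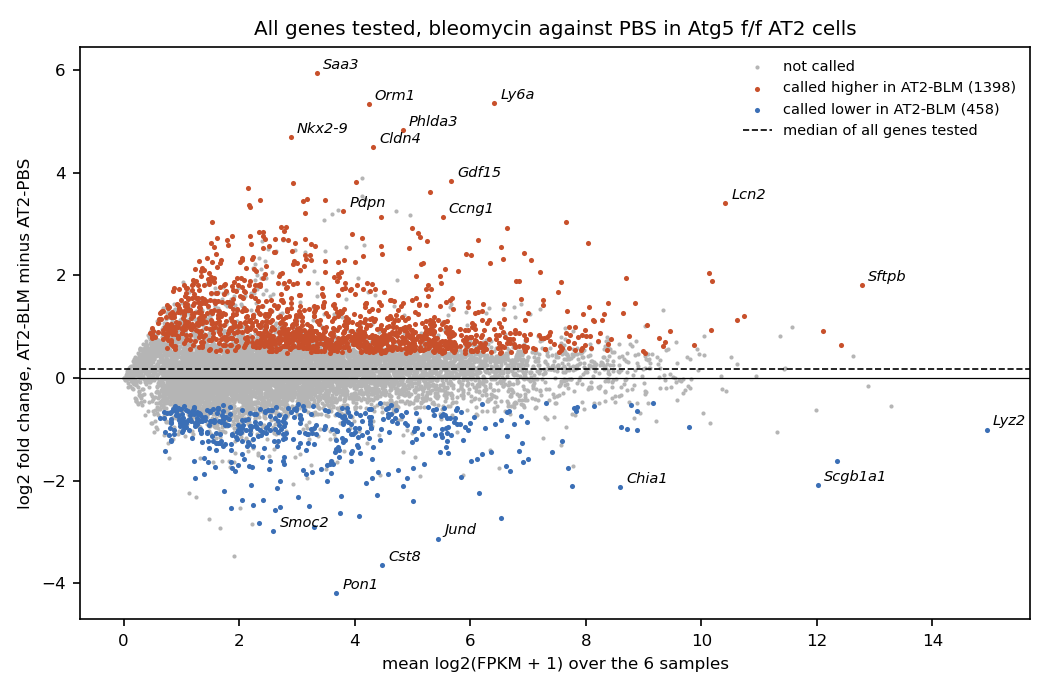
Log2 fold change of AT2-BLM against AT2-PBS (vertical axis) by the mean log2(FPKM + 1) over the 6 samples (horizontal axis) for the 10675 genes tested. Coloured points are the 1398 genes called higher and the 458 called lower, and the dashed line is the median change of 0.17, above 0.

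Some libraries stood apart. Within groups, Pearson correlations across genes (which are not independent replicates) were 0.946 to 0.963 in AT2-PBS and 0.987 between AT2-BLM replicates 1 and 2, against 0.964 and 0.970 for replicate 3 with these. Of the 1398 genes called higher, AT2-BLM replicate 3 had the highest level in 907 and the lowest of the 3 in 287. Leaving out a sample gave between 1027 genes called (without AT2-PBS replicate 2) and 1574 (without AT2-PBS replicate 1), with 1121 without AT2-BLM replicate 3, 1055 without AT2-BLM replicate 2 and 1185 without AT2-PBS replicate 3. In all 6 of these fits, 561 genes stayed called higher and 175 lower. AT2-PBS replicate 1 held pancreatic islet transcripts (sum of 8 genes 3265 FPKM, against 0.161 to 0.955 in the other 5 samples compared). Atg5-/- AT2-PBS replicates 1 and 2, in the same fit, held nearly the same sum (3251 and 3252 FPKM). Summed liver transcripts were 595, 7.75 and 3.95 FPKM in AT2-PBS replicates 1, 2 and 3 and 870, 366 and 289 in AT2-BLM. Y-linked transcripts summed to 14.2 to 20.9 FPKM in AT2-PBS replicates 2 and 3 and AT2-BLM replicate 3 and to 0.0552 to 0.133 in the other 3 samples compared, although male mice are given for the bleomycin experiments. In Atg5-/- AT2-PBS they summed to 0.449 to 0.733 FPKM. A fit with the Y-linked level as a covariate called 2112 genes. The number of fragments behind the values is unknown: steps in the low values put AT2-BLM replicate 3 at 1.16 times AT2-PBS replicate 1 and were not clear for the other 4 samples. No interval for counting error can therefore be given.

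The samples carried the transcripts of AT2 cells. Sftpa1, Sftpb, Sftpd, Napsa, Slc34a2 and Lyz2 were each at 1116 FPKM or more in every sample, and Epcam, the positive sort marker, was at 146, 130 and 179 FPKM in AT2-PBS and at 115, 122 and 156 in AT2-BLM. Sftpc, which encodes surfactant protein C and defines the cell type, was listed at 112570 FPKM in AT2-BLM replicate 2 and at 0 in the other 5 samples. Such a 0 can be a failed estimate, and Sftpc was not tested. Gapdh, a gene used by every cell, was likewise listed below 1 FPKM in all 6 samples (0.298 to 0.995).

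**Figure D2:**
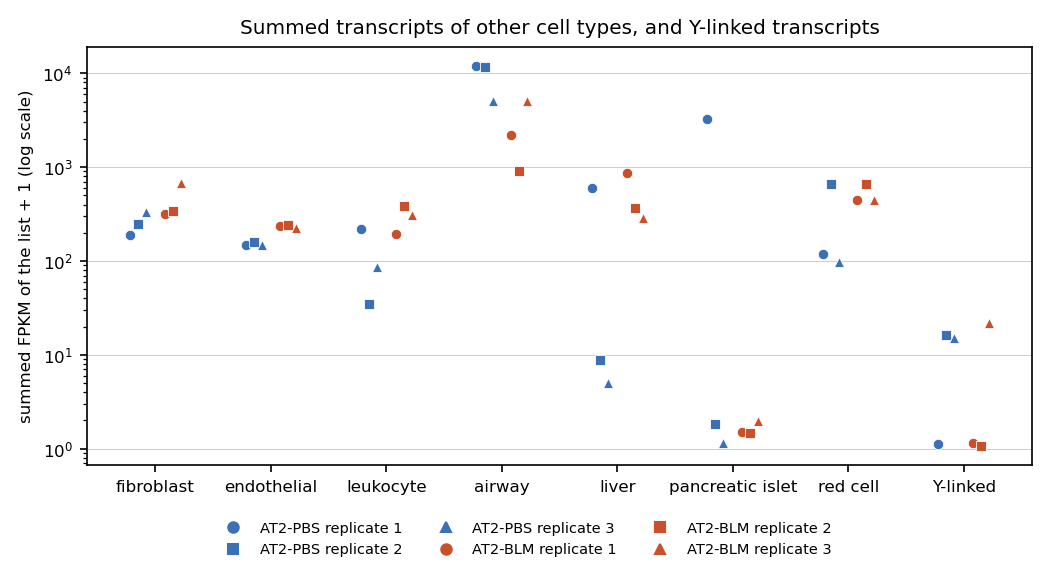
Summed FPKM + 1 (log scale) of marker lists of other cell types and of Y-linked transcripts in each AT2-PBS and AT2-BLM sample. Islet transcripts are high in AT2-PBS replicate 1 (3265), and liver transcripts in that sample (595) and in AT2-BLM (289 to 870).

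The largest rises included members of the acute phase, p53 target, Ly6 and transitional state lists. Saa3, an acute phase apolipoprotein also made outside the liver (chromosome 7, 53967368 to 53971046 of mm9, the build of all coordinates except those of promoters), was at 0.204, 0.791 and 0 FPKM in AT2-PBS and at 136, 154 and 22.8 FPKM in AT2-BLM. The lowest AT2-BLM sample, replicate 3, was far above every AT2-PBS sample, and the log2 change was 5.95 (standard error 0.72, adjusted p = 0.000843). Ly6a (chromosome 15, 74825308 to 74828064) encodes Sca-1, the surface antigen for which cells were gated as negative. Its transcript was at 14.8, 16.8 and 7.36 FPKM in AT2-PBS and at 325, 777 and 649 FPKM in AT2-BLM (log2 change 5.37, standard error 0.78, adjusted p = 0.00159). The groups thus differed widely in the RNA of a protein that both sorts selected against. Nkx2-9, a homeobox transcription factor (chromosome 12, 57712376 to 57714271), stood at 0.243, 0.378 and 0.816 FPKM in AT2-PBS and at 52.4, 43.5 and 21.7 FPKM in AT2-BLM (log2 change 4.69, standard error 0.35, adjusted p = 3.1e-05). Cldn4, a claudin of epithelial tight junctions (chromosome 5, 135420996 to 135422804), went from 3.34, 3.45 and 2.78 FPKM to 68.7, 52.9 and 228 FPKM (log2 change 4.51, standard error 0.61, adjusted p = 0.00112). Here AT2-BLM replicate 3 was the highest sample.

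Spp1, the secreted matrix protein osteopontin, rose by 3.83 on the log2 scale, Itm2a, a membrane protein, by 3.62 and Fam46b, of a family of non-canonical poly(A) polymerases, by 3.71. All 3 were robust to scaling and to the omission of any sample. LOC108169013, the ninth largest rise (3.8), was not robust to scaling and was called in 1 of the 6 fits with a sample left out, that without AT2-PBS replicate 1.

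The promoters of Saa3 and Phlda3 are shown because these are the largest rises with a RefSeq promoter entry, which Ly6a and Orm1 lack. Both are the 250 bases before the RefSeq gene start on GRCm38.p6, chr7:46715677-46715926 on the minus strand and chr1:135765835-135766084 on the plus strand, written in the direction of transcription. Capitals mark a match to a searched motif.
Saa3: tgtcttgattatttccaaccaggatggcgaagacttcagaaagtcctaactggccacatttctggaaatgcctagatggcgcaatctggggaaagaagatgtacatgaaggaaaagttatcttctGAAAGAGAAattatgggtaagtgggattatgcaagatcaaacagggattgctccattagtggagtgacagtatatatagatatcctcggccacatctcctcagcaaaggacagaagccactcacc
Phlda3: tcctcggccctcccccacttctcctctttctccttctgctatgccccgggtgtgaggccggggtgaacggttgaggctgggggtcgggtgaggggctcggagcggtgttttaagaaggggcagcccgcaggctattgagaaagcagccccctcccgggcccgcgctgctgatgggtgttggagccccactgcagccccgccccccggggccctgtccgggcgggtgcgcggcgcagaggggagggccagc
The Saa3 promoter held 1 match, to the interferon response motif GAAANNGAA, which starts 125 bases before the gene start. The motifs searched on both strands were this one, AP-1 (TGACTCA), the cyclic AMP response element (TGACGTCA), NF-kB (GGGNNTTTC), C/EBP (TTGCGCAA), STAT (TTCCNGGAA), TEAD (GGAATG), E-box (CACGTG) and the antioxidant response element (TGACNNNGC, which can overlap AP-1). None of these letters was found in the Phlda3 promoter shown. A match is a description of the sequence only.

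The largest falls, which follow, came from genes of varied kinds. Pon1, an esterase that hydrolyses oxidized lipids (chromosome 6, 5118090 to 5143946), fell from 39.6, 84.9 and 46.0 FPKM to 3.18, 1.97 and 1.16 FPKM (log2 change -4.19, standard error 0.46, adjusted p = 0.000475). Cst8, a cystatin-related protein (chromosome 2, 148624521 to 148631331), fell from 80.6, 84.2 and 67.8 FPKM to 5.66, 4.24 and 6.06 FPKM (log2 change -3.64, standard error 0.30, adjusted p = 6.48e-05). The spread within either group was small beside this change. Smoc2, a matricellular protein (chromosome 17, 14416513 to 14541797), was at 11.9, 17.5 and 19.3 FPKM in AT2-PBS and at 1.70, 0.983 and 0.843 in AT2-BLM (log2 change -2.98, standard error 0.45, adjusted p = 0.002). Also in the 12 largest falls and called without any 1 sample were Vpreb3 (-2.90), the cholecystokinin receptor Cckar (-2.83), Bpifb5 (-2.63), Fam178b (-2.56) and the cyclic nucleotide phosphodiesterase Pde1b (-2.54). Bcl2a1a, an antiapoptotic member of the Bcl-2 family, fell by 2.52. It is 1 of several near-identical genes between which reads can be split, and its copies Bcl2a1b and Bcl2a1d changed by -1.95 (called) and -0.50 (not called).

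Jund, Cited2 and Scarf2, 3 of the 12 falls, were uneven in AT2-PBS. Jund, a subunit of AP-1, was at 46.9, 103 and 429 FPKM in AT2-PBS and at 9.20, 8.82 and 30.7 FPKM in AT2-BLM (log2 change -3.13, standard error 0.81, adjusted p = 0.0218). Cited2, a transcriptional cofactor, was at 13.5, 20.7 and 251 FPKM against 5.65, 3.81 and 8.26 FPKM. Scarf2, a scavenger receptor, was at 8.99, 22.5 and 43.7 FPKM against 1.67, 2.05 and 6.31 FPKM. The highest of the 3 AT2-PBS samples was replicate 3 in each case. Jund and Scarf2 were no longer called when replicate 2 or 3 of AT2-PBS, or replicate 1 or 2 of AT2-BLM, was left out, and Cited2 was no longer called without any 1 of the AT2-BLM samples. Without AT2-PBS replicate 3, Cited2 was still called. Cebpb, a transcription factor that shared this pattern and was not called, was at 182 FPKM in AT2-PBS replicate 3 and at 0.365 to 1.30 FPKM in the other 5 samples.

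**Figure D3:**
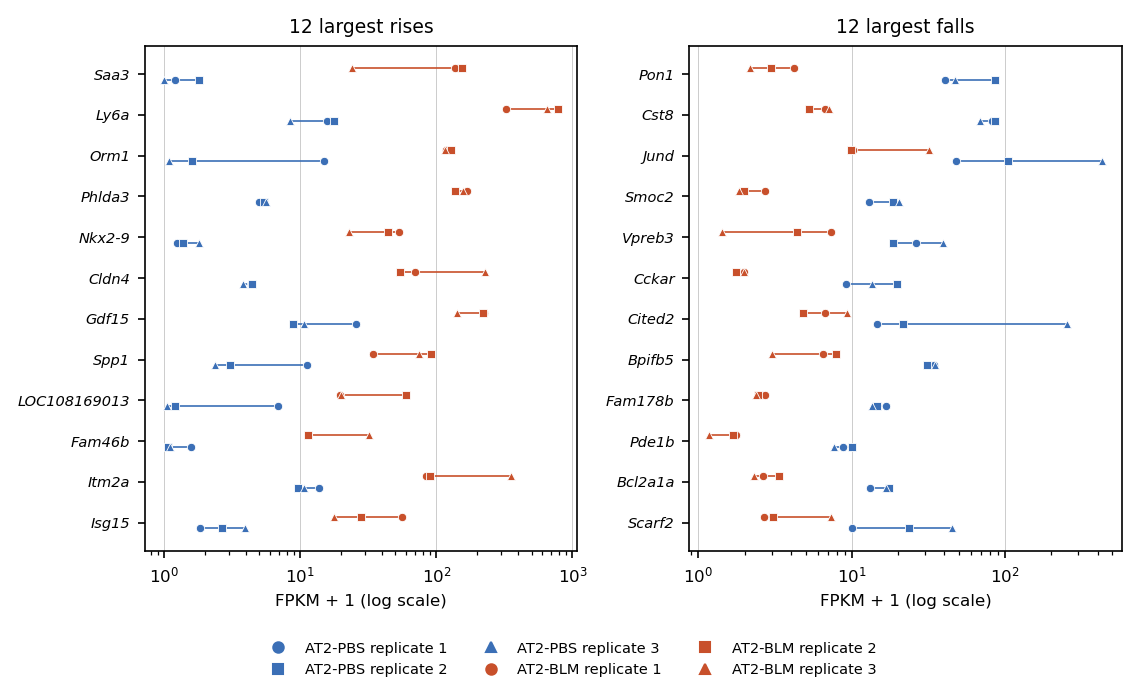
FPKM + 1 on a log scale in each sample for the 12 largest rises (left) and the 12 largest falls (right) among called genes with ranges that do not overlap. Points are samples and lines the range of a group; Phlda3 and Cst8 have narrow ranges, while Jund and Cited2 are highest in AT2-PBS replicate 3 (429 and 251 FPKM).

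Most tested targets of p53, the transcription factor that halts the cell cycle after DNA damage, rose. Of 27 tested members of a list of p53 targets, 18 rose (66.7%, against 13.1% of all genes), 13 of them robust to scaling, and none fell. Their median change was 1.15, or 0.98 above the median of all genes. Phlda3, a repressor of Akt signalling (chromosome 1, 137662696 to 137665713), was at 3.95, 4.43 and 4.62 FPKM in AT2-PBS and at 166, 135 and 155 FPKM in AT2-BLM (log2 change 4.84, standard error 0.21, adjusted p = 2.35e-07). Ccng1, cyclin G1 (chromosome 11, 40562054 to 40568813), went from 14.7, 13.7 and 15.1 FPKM to 132, 149 and 125 FPKM (log2 change 3.14, standard error 0.18, adjusted p = 3.24e-06). All 3 AT2-BLM samples, replicate 3 included, lay close together for these genes. Aen, a nuclease of apoptosis, was at 2.71 to 2.96 FPKM in AT2-PBS and at 21.7 to 23 FPKM in AT2-BLM (log2 change 2.61, standard error 0.18). Cdkn1a, the cyclin-dependent kinase inhibitor p21, was at 73.7, 18.7 and 30.6 FPKM in AT2-PBS and at 303, 238 and 276 FPKM in AT2-BLM (log2 change 2.92, standard error 0.36). Gdf15, a stress-induced cytokine (chromosome 8, 73153292 to 73156355), rose by 3.83, the death receptor Fas by 1.95 and Bax, which permeabilizes mitochondria, by 1.75. Members not called included Btg2 (-0.22, which turns positive without AT2-PBS replicate 1) and Bbc3 (0.46), which encodes Puma. Trp53 itself rose by 0.72, from 8.49 to 10.1 FPKM to 13.8 to 19.0 FPKM, and was not robust to scaling. Mdm2, the ligase that degrades p53, rose by 0.88 and was likewise not robust.

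Many transcripts of the cell cycle rose. Of 37 tested proliferation genes, 21 rose (56.8%), 14 of them robust to scaling, and 1 fell, and the median change was 1.08 (0.91 above all genes). Levels stayed low for most of them. Ube2c, of the anaphase-promoting machinery, was at 7.15, 7.35 and 5.80 FPKM in AT2-PBS and at 32.5, 53.7 and 35.0 FPKM in AT2-BLM (log2 change 2.39, standard error 0.42, adjusted p = 0.00425). Plk1, a mitotic kinase, was at 1.02, 1.99 and 2.35 FPKM and at 5.45, 11.9 and 9.84 FPKM (log2 change 1.83). Ccnd1, cyclin D1, was at 29.3, 19.4 and 13.2 FPKM and at 60.1, 60.4 and 101 FPKM (log2 change 1.82, standard error 0.31, adjusted p = 0.00365). Cdkn3 (2.34), Kif20a (1.80), Ccnb1 (1.69), Tpx2 (1.07) and Nusap1 (1.08) were also called without any 1 sample. Rrm2 (1.90), Birc5 (1.11) and Top2a (1.10) were called with all samples but in none of the 6 fits that left a sample out. Hmgb2, a chromatin protein, fell by 0.79 and was not called in any of these 6 fits either. In bulk RNA, a larger share of dividing cells and more RNA per cell cannot be told apart, and the same holds for every list.

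Acute phase and innate defence genes rose in part. In 11 of the 12 called members AT2-BLM replicate 3 was the lowest of the 3 bleomycin samples, against 287 of all 1398 genes called higher. Of 25 tested acute phase genes 12 rose (48%), 9 robust to scaling, and none fell, with a median change of 1.47 (1.29 above all genes). Lcn2, lipocalin 2, which binds bacterial siderophores (chromosome 2, 32240153 to 32243317), was at 493, 396 and 367 FPKM in AT2-PBS and at 5781, 6849 and 2224 FPKM in AT2-BLM (log2 change 3.42, standard error 0.44, adjusted p = 0.00101). Slpi, a secreted inhibitor of neutrophil elastase, was at 66.5, 61.9 and 80.4 FPKM and at 642, 613 and 495 FPKM (log2 change 3.05, standard error 0.29, adjusted p = 0.000166). Orm1, an acid glycoprotein best known from liver (chromosome 4, 63005594 to 63009197), was at 14, 0.6 and 0.0861 FPKM and at 116, 128 and 115 FPKM (log2 change 5.34, standard error 0.92, adjusted p = 0.00364). Its copy Orm2 was listed at 0 in every AT2-PBS sample and at 9.70, 13.7 and 2.57 FPKM in AT2-BLM. The endotoxin coreceptor Cd14 was at 34.3 to 68.0 FPKM in AT2-PBS, at 525 and 465 FPKM in AT2-BLM replicates 1 and 2 and at 93.9 FPKM in replicate 3. Pigr, which carries antibodies across epithelia, was at 0.940 to 3.28 FPKM in AT2-PBS and at 45.8, 36.9 and 1.93 FPKM in AT2-BLM, so that replicate 3 lay within the AT2-PBS range. Saa1, Pigr and Retnla were not robust to scaling, and each was called in 1 of the 6 fits with a sample left out. Members not called included haptoglobin (Hp, -0.15, and 0.30 without AT2-BLM replicate 3) and Lyz1 (-1.05).

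Some liver transcripts rose as well. Of 17 liver genes, all with positive changes (median 2.50), 4 were called (23.5%, against 13.1% of all genes), 2 of them robust to scaling. These were Fgb (3.22), Fga (2.71), Fgg (2.47) and Cyp2e1 (2.86). The ranges of the groups did not overlap for 2 of the 17. Albumin (Alb) was at 67.6, 1.14 and 1.6 FPKM in AT2-PBS and at 87.6, 33.6 and 26.4 FPKM in AT2-BLM. In AT2-PBS replicate 1, where the liver sum was 595 FPKM, Saa3 was listed at 0.204 FPKM, Orm1 at 14 and Saa1 at 9.68, while Lcn2 was at 493 and Slpi at 66.5. Saa1 and its near-identical copy Saa2 can share reads, so that their split is uncertain. AT2-BLM replicate 3, with a liver sum of 289 FPKM, had Orm1 at 115 FPKM. The part of liver RNA in the changes of Orm1, Orm2 and Saa1 was not tested.

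**Figure D4:**
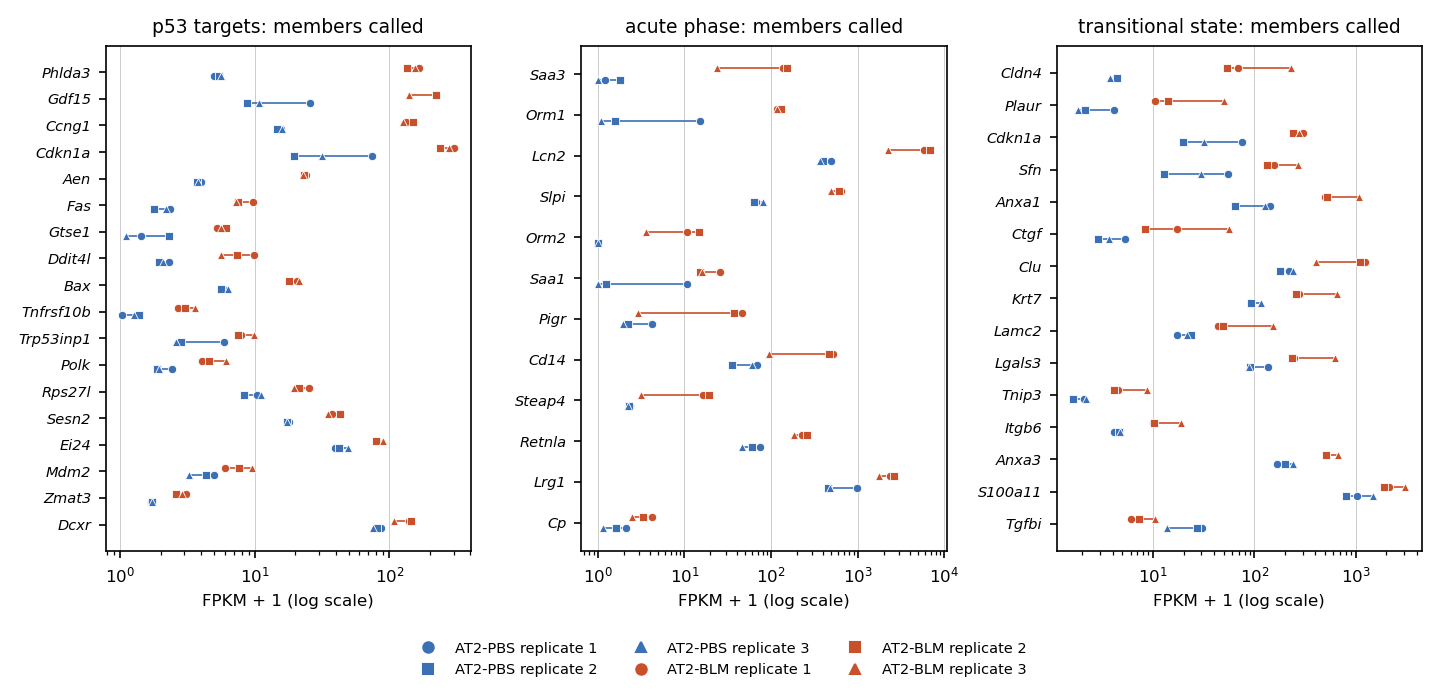
FPKM + 1 on a log scale in each sample for the called members of the p53, acute phase and transitional state lists. The AT2-BLM samples lie close together for most p53 targets, while replicate 3 (triangles) is the lowest of the 3 for 11 of 12 acute phase genes and the highest for 12 of the 14 transitional state genes that rose. Over all 1398 genes called higher, replicate 3 is the highest in 907 and the lowest in 287.

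Complement and chemokine genes rose in smaller number. Of 19 complement and coagulation genes 7 rose (36.8%) and none fell, and 6 were robust to scaling (median 0.95, or 0.78 above all genes). Cfb, complement factor B of the alternative pathway, was at 2.11, 0.0572 and 0.123 FPKM in AT2-PBS and at 21.8, 12.2 and 15.7 FPKM in AT2-BLM (log2 change 3.47, standard error 0.38, adjusted p = 0.000475). C1ra (2.04) and C1s1 (1.81), proteases of the classical pathway, also rose, as did Procr (2.04), the protein C receptor, whereas C3 (0.70) was not called and C5 (Hc, -0.96) was not called either. Of 29 chemokine and cytokine genes 7 rose (24.1%), 3 robust to scaling (median 0.63). Cxcl17, a mucosal chemokine, was at 84.1, 38.5 and 54.4 FPKM in AT2-PBS and at 250, 295 and 129 FPKM in AT2-BLM (log2 change 1.90, standard error 0.33, adjusted p = 0.00374). It was the only one of the 7 called without any 1 sample. Cxcl5, a neutrophil attractant, was at 0.307 to 0.540 FPKM in AT2-PBS, at 62.0 and 36.4 FPKM in AT2-BLM replicates 1 and 2 and at 0.301 FPKM in replicate 3. The groups therefore overlapped, and the call of Cxcl5 held in 1 of the 6 fits with a sample left out, that without AT2-BLM replicate 3. Il6 (0.39, and -0.85 without AT2-PBS replicate 2) and Tnf (-0.83) were not called.

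Interferon-stimulated genes rose in part, with few robust calls. Of 39 tested, 15 rose (38.5%), 24 were not called and 4 were robust to scaling (4 rose with quantile normalization, 7 with median-ratio scaling and 14 with a common sum). The median change was 1.4 (1.23 above all genes). In 14 of the 15 AT2-BLM replicate 3 was the lowest bleomycin sample, against 287 of all 1398 genes called higher. Usp18, which removes the Isg15 modifier from proteins, was at 2.18, 1.56 and 1.19 FPKM in AT2-PBS and at 33.6, 30.4 and 20.3 FPKM in AT2-BLM (log2 change 3.45, standard error 0.62, adjusted p = 0.00432). Isg15 itself was at 0.830, 1.67 and 2.92 FPKM and at 54.5, 26.9 and 16.7 FPKM (log2 change 3.49, standard error 0.84, adjusted p = 0.0163), and its call was lost without AT2-BLM replicate 1. Gbp2 (2.35) and Ifitm3 (2.41) were the other robust members. Stat2 (0.87) and Irf1 (0.52), factors of the pathway, were not called. Of 29 members with a RefSeq promoter, from 250 bases before to 50 after the start, 19 (65.5%) held GAAANNGAA, against 613 of 8629 tested genes with a promoter (7.10%) and 88 of the 1125 called higher (7.82%). The list was made of interferon-stimulated genes whether called or not, so this share does not bear on the changes in these samples.

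Class I and class II genes of antigen presentation were counted separately. Of 20 class I and immunoproteasome genes 12 rose (60%), 5 robust to scaling, and 8 were not called, with a median of 1.05. B2m, the invariant chain of class I molecules, was at 1074, 400.2 and 392 FPKM in AT2-PBS and at 4010, 2581 and 1168 FPKM in AT2-BLM (log2 change 2.05). H2-K1 was at 388, 233 and 236 FPKM and at 1119, 816 and 501 FPKM (log2 change 1.47, standard error 0.36, adjusted p = 0.0179). The calls of both B2m and H2-K1 were lost on leaving out replicate 2 or 3 of AT2-PBS or replicate 1 or 2 of AT2-BLM, and that of B2m also with quantile normalization. H2-T22 (1.70) and H2-Q4 (1.85) were called without any 1 sample, and H2-Q6 and H2-Q7, near-identical genes, are uncertain. Of 11 class II genes 1 rose (9.09%, against 13.1% of all genes), Ctss, a lysosomal protease that trims the invariant chain (2.31, not robust to scaling), and none fell. Their median change was -0.48 (-0.65 relative to all genes), and 7 of the changes were negative. Under each of the 3 scalings none rose, and with quantile normalization 1 fell. H2-Aa was at 1688, 1286 and 1700.0 FPKM in AT2-PBS and at 1409, 1068 and 398 FPKM in AT2-BLM (log2 change -0.87, 95% interval -1.74 to -0.0028, adjusted p = 0.146), and Cd74 was at 4088 to 5977 FPKM and at 1851 to 5169 FPKM (-0.62). AT2-BLM replicate 3 was the lowest sample for both.

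The AT2 programme was partly lower. Of 27 AT2 genes tested, 4 fell (14.8%, against 4.29% of all genes), 3 of them robust to scaling, 1 rose, and the median change was -0.32 (-0.49 relative to all genes). With median-ratio scaling 8 fell and none rose, with a common sum 7 fell and none rose, and with quantile normalization 4 fell and 1 rose. Chia1, an acidic chitinase, fell from 738, 1182 and 598 FPKM to 223, 169.6 and 162 FPKM (log2 change -2.13, standard error 0.28, adjusted p = 0.00107). Lgi3, a secreted protein, fell from 557, 605 and 612 FPKM to 356, 331 and 223 FPKM (log2 change -0.99, standard error 0.21, adjusted p = 0.0107). Lpcat1, which makes surfactant phosphatidylcholine, fell by 0.49 but was called in 1 of the 6 fits with a sample left out, and Lyz2, lysozyme, fell by 1.01 but was called in none of them. Surfactant protein transcripts went in different directions. Sftpb was uneven in AT2-PBS, at 1777, 11572 and 2590 FPKM, and at 16779, 15336 and 8984 FPKM in AT2-BLM (log2 change 1.81, standard error 0.56, adjusted p = 0.0436), a rise that was not robust to scaling. Sftpa1 (-0.55) and Sftpd (0.42), the transporters Abca3 (-0.51) and Slc34a2 (-0.25) and the factors Etv5 (-0.76) and Nkx2-1 (0.25) were not called.

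AT1 genes rose in part. Of 24 tested, 9 rose (37.5%), 7 robust to scaling, none fell, and the median was 0.75 (0.57 above all genes). Pdpn, podoplanin of the AT1 surface (chromosome 4, 142857334 to 142889467), was at 6.57, 4.95 and 1.00 FPKM in AT2-PBS and at 37.9, 31.2 and 62.5 FPKM in AT2-BLM (log2 change 3.26, standard error 0.46, adjusted p = 0.00132). Hopx, a homeodomain protein of AT1 cells (chromosome 5, 77515468 to 77544186), was at 2.13, 2.83 and 4.33 FPKM and at 16.8, 10.3 and 24.2 FPKM (log2 change 2.10, standard error 0.28, adjusted p = 0.00112). Akap5 (1.72), Cav1 (1.34) and Scnn1g (1.85), a subunit of the epithelial sodium channel, also rose. Ager, the receptor RAGE that is abundant in AT1 cells, was at 1156, 1267 and 1428 FPKM and at 1730.4, 1482 and 1882 FPKM, with no overlap between groups but no call (0.40, adjusted p = 0.102). Aqp5 (0.36) and Rtkn2 (0.47), other defining AT1 transcripts, were not called. AT2-BLM replicate 3 was the highest bleomycin sample for all 9 AT1 genes that rose, against 907 of all 1398 genes called higher.

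Genes of the transitional state rose in 14 of 27 (51.9%), 13 of them robust to scaling, with 1 fall and a median of 1.36 (1.19 above all genes). In 12 of the 14, AT2-BLM replicate 3 was the highest sample, against 907 of all 1398 genes called higher. Beside Cldn4 and Cdkn1a, Sfn, the 14-3-3 sigma protein, was at 53.4, 11.9 and 28.9 FPKM in AT2-PBS and at 154, 132 and 268 FPKM in AT2-BLM (log2 change 2.68, standard error 0.60, adjusted p = 0.0122). Plaur, the urokinase receptor, was at 3.16, 1.16 and 0.825 FPKM and at 9.50, 13.1 and 48.8 FPKM (log2 change 2.94). Itgb6, of the integrin that activates latent TGF-beta, was at 3.10, 3.59 and 3.75 FPKM and at 8.98, 9.20 and 17.8 FPKM (log2 change 1.47, standard error 0.23, adjusted p = 0.00222). Clu, clusterin, went the other way among the bleomycin samples, at 1219, 1092 and 400.0 FPKM against 177 to 241 FPKM in AT2-PBS (log2 change 1.94). Krt8, the keratin that names the state, was at 445, 289.9 and 373 FPKM and at 565, 566 and 1266 FPKM, without overlap but not called (1.02, standard error 0.34, adjusted p = 0.055). Krt19 (1.26) and Krt18 (0.80) were not called. Tgfbi, a matrix protein, was the member that fell (-1.54), from 29.5, 26.4 and 12.8 FPKM to 5.02, 6.34 and 9.55 FPKM.

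**Figure D5:**
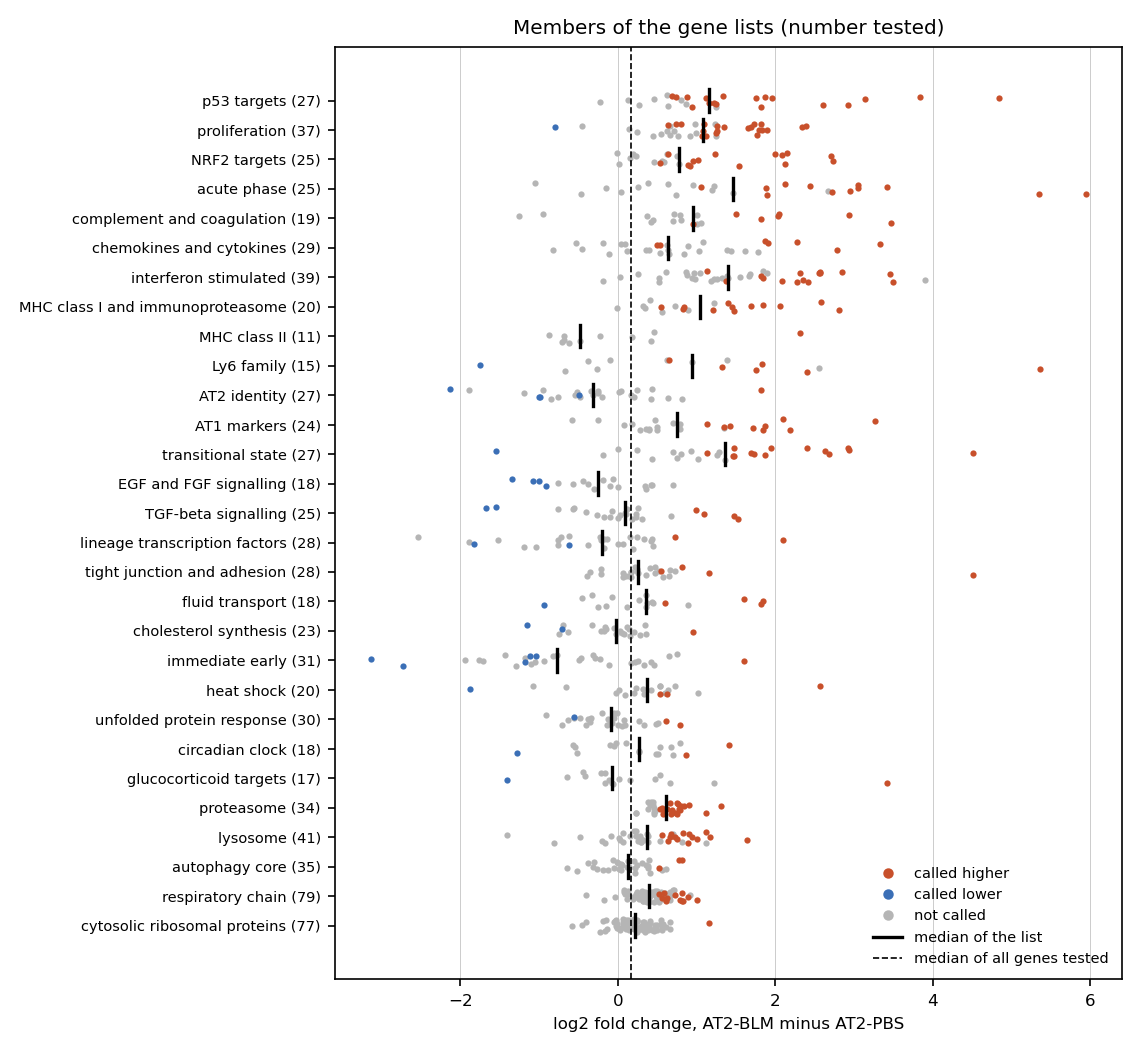
Log2 fold change of AT2-BLM against AT2-PBS for the tested members of 29 gene lists, with the number tested in parentheses. Black bars are list medians and the dashed line is the median of all genes (0.17); p53 targets (1.15), transitional state (1.36) and acute phase (1.47) lie to its right and immediate early genes (-0.77) to its left.

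NRF2 targets, enzymes that detoxify oxidants and electrophiles, rose in 14 of 25 (56%), 7 of them robust to scaling, and none fell (median 0.78, 0.61 above all genes). Nqo1, a quinone reductase, was at 2.46, 2.70 and 2.26 FPKM in AT2-PBS and at 15.5, 14.9 and 42.8 FPKM in AT2-BLM (log2 change 2.70, standard error 0.33, adjusted p = 0.000843). Srxn1, which repairs peroxiredoxins, was at 34.3, 15.7 and 17.5 FPKM and at 59.2, 69.3 and 163 FPKM (log2 change 2.00, standard error 0.36, adjusted p = 0.00429). Cbr3 (2.73), Akr1b8 (2.08) and Gsta3 (1.24) also rose and were robust, while Hmox1 (0.56) and Prdx1 (0.46) were not called. AT2-BLM replicate 3 was the highest sample in 11 of the 14, against 907 of all 1398 genes called higher. Among 21 members with a promoter, 7 (33.3%) held TGACNNNGC, against 14.9% of all promoters, and 5 (23.8%) held TGACTCA, against 3.63%. In the promoters of all genes called higher the shares were 15.2% and 4.98%. The list was made of NRF2 targets whether called or not, so its motif shares do not bear on the changes in these samples. Other lists held these letters too, TGACNNNGC in 30.8% of the immediate early and 20.7% of the interferon-stimulated promoters, and TGACTCA in 17.2% of the latter.

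Immediate early genes, which respond within minutes to growth factors and to cell handling, fell in part. Of 31 tested, 5 fell (16.1%, and 8 genes under each of the 3 scalings) and 1 rose, all 6 robust to scaling, and the median was -0.77 (-0.95 relative to all genes). Egr1, a zinc finger factor, was at 587, 102 and 223 FPKM in AT2-PBS and at 26.4, 104 and 15.4 FPKM in AT2-BLM (log2 change -2.72, standard error 0.77, adjusted p = 0.0323). AT2-PBS replicate 1 was the highest sample for Egr1, Fos (1541 FPKM, against 279 to 529 in the other 5), Jun and Atf3. Without it the median of the list was -0.20, and Egr1, Egr2 and Rhob were no longer called. Socs3, an inhibitor of cytokine signalling, rose from 33.5, 15.1 and 18.3 FPKM to 71.4, 71.5 and 56.3 FPKM (log2 change 1.6, standard error 0.27, adjusted p = 0.00333). Heat shock genes were called in 4 of 20 (3 higher, 15%, and 1 lower), a share of rises near that of all genes (13.1%), with Cryab (2.56) higher and Hspa1a (-1.88) lower. Of 30 genes of the unfolded protein response 2 rose (6.67%) and 1 fell (3.33%), with a median of -0.09. This balance depended on the scaling, since none rose and 5 fell with quantile normalization, none and 8 with median-ratio scaling and none and 3 with a common sum.

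Signalling genes and lineage transcription factors were called in small number, in either direction. Of 18 EGF and FGF signalling genes 4 fell (22.2%, against 4.29% of all genes), all robust to scaling, and none rose (median -0.25, or -0.42 relative to all genes). Fgfr2, the receptor for FGF7 and FGF10 on AT2 cells, fell from 92.5, 67.1 and 54.4 FPKM to 33.7, 37.3 and 27.4 FPKM (log2 change -1.07, standard error 0.28, adjusted p = 0.0237), and its call was lost on leaving out replicate 1 or 2 of AT2-PBS or replicate 1 or 3 of AT2-BLM. Fgfr3 fell from 3.28, 4.43 and 3.79 FPKM to 1.58, 1.53 and 1.55 FPKM (log2 change -0.91, standard error 0.19, adjusted p = 0.0085) and was called without any 1 sample. Fgf1 (-1) and Spry1 (-1.34), a feedback inhibitor of receptor kinases, were the other members that fell. In the TGF-beta list (25 tested, 4 higher, or 16%, 2 lower, or 8%, median 0.09), Bambi, a decoy receptor that dampens the pathway, fell from 21.2, 20.5 and 21.6 FPKM to 5.80, 5.56 and 6.51 FPKM (log2 change -1.67, standard error 0.27, adjusted p = 0.00256). Id1 (1.53), Tgfb2 (1.10) and Id3 (1.00), which rose, were not robust to scaling. Among 28 lineage transcription factors 2 rose (7.14%), Hopx and Trp53, and 2 fell (7.14%), Klf5 (-0.62) and Sox4 (-1.83). Sox4 was highest in AT2-PBS replicate 3 (51.9 FPKM, against 7.17 and 12.7 in replicates 1 and 2) and was called in 1 of the 6 fits with a sample left out.

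Barrier and ion transport genes were called in small number. Of 28 tight junction and adhesion genes 4 rose (14.3%, near the 13.1% of all genes), with Cldn4 and Itga3 (1.16), an integrin that binds laminin, robust to scaling, and the median was 0.25. Of 18 fluid transport genes 4 rose (22.2%) and 1 fell. Scnn1b, a subunit of the sodium channel that clears alveolar fluid, was at 9.05, 9.24 and 5.50 FPKM in AT2-PBS and at 24.9, 18.6 and 57.2 FPKM in AT2-BLM (log2 change 1.82, standard error 0.41, adjusted p = 0.0122). The chloride channel Ano1 (1.6) rose and the cotransporter Slc12a2 (-0.94) fell. The Ly6 family, small surface proteins that include Sca-1, had 6 of 15 members higher (40%, against 13.1% of all genes) and 1 lower (6.67%, against 4.29%), Lypd2 (-1.75). Ly6c1 rose from 24.3 to 28.9 FPKM to 95.7 to 241 FPKM (log2 change 2.40, standard error 0.31, adjusted p = 0.00106), while Ly6e was at 573, 473 and 711 FPKM and at 1546, 794 and 89.7 FPKM, a wide spread with no call (-0.27, and 0.94 without AT2-BLM replicate 3). Several Ly6 genes are close copies and their values are uncertain.

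Of 34 proteasome genes 20 rose (58.8%) and 14 were not called, with a median of 0.61, or 0.43 above all genes. Under quantile normalization or median-ratio scaling 11 rose and under a common sum 3, and 3 were robust to scaling. Psmd14, a deubiquitinase of the 26S lid, was at 26.7, 24.6 and 26.1 FPKM in AT2-PBS and at 53.5, 56.5 and 62.3 FPKM in AT2-BLM (log2 change 1.12, standard error 0.14, adjusted p = 0.000871). AT2-BLM replicate 3 was the highest sample for each of the 20, against 907 of all 1398 genes called higher. Of 41 lysosomal genes 14 rose (34.1%), 7 robust to scaling, and none fell (median 0.37). Ctsd, cathepsin D, was at 171, 137 and 166 FPKM and at 279.7, 318 and 355 FPKM (log2 change 1.00, standard error 0.17, adjusted p = 0.00376), and Cd68, a lysosomal membrane protein abundant in macrophages, rose by 1.64. Of 35 core autophagy genes 3 rose (8.57%, below the 13.1% of all genes; Sqstm1 0.82, Atg12 0.78, Atg4a 0.52), none robust to scaling, and the median was 0.12, below that of all genes. Atg5 was at 12.5, 6.01 and 11.5 FPKM and at 11.1, 9.97 and 10.3 FPKM (log2 change 0.11, 95% interval -0.39 to 0.62), a sign that is negative under each of the 3 scalings (-0.09 to -0.06). Nuclear genes of the respiratory chain rose in 12 of 79 (15.2%, against 13.1% of all genes), 1 robust to scaling. Of 77 cytosolic ribosomal protein genes 1 rose, Rps27l (1.15), which is also a p53 target, and the list median was 0.22, or 0.04 above all genes, a sign that turns to -0.01 when FPKM are scaled to a common sum.

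Genes of the circadian clock, of glucocorticoid response and of cholesterol synthesis were called at shares of 4.35% to 11.1% higher and 5.56% to 8.7% lower, against 13.1% and 4.29% of all genes. Of 18 circadian genes Bhlhe40 (1.42) and Per2 (0.87, not robust to scaling) rose and Npas2 (-1.28) fell. Of 17 glucocorticoid targets Lcn2, counted above with the acute phase genes, rose and Klf9 (-1.41) fell. Of 23 cholesterol synthesis genes Insig1 (-1.15) and Srebf2 (-0.71) fell and Pmvk (0.96, not robust to scaling) rose.

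Markers of other cells differed between the groups in part. Of 10 airway transcripts tested, Scgb1a1, Cyp2f2, Dynlrb2 and Tppp3 fell (40%) and none rose, and Scgb1a1, the secretoglobin of club cells, was at 11512, 11306 and 4776 FPKM in AT2-PBS and at 2042, 811 and 4921 FPKM in AT2-BLM, so that the groups overlapped. Foxj1 and Trp63, markers of ciliated and basal cells, were at most at 0.0648 and 0.0362 FPKM. Dynlrb2 and Tppp3, which fell, are also genes of ciliated cells, so Foxj1 alone does not speak for that cell type. Of 22 leukocyte genes C1qa (2.46), C1qb (2.70) and C1qc (2.46), the subunits of complement C1q made by macrophages, rose (13.6%, near the 13.1% of all genes), and their calls were lost on leaving out replicate 2 or 3 of either group. Summed leukocyte transcripts were 33.5 to 221 FPKM in AT2-PBS and 195 to 380.2 FPKM in AT2-BLM, with Ptprc, which encodes CD45, at most at 0.946 FPKM. Fibroblast sums were 189 to 332 and 315 to 674 FPKM, with Pdgfra at most at 0.154 FPKM. Of 13 fibroblast genes tested, Col6a1 (1.29) and Col6a2 (1.97) rose (15.4%, near the 13.1% of all genes). Endothelial sums were 146 to 157 and 226 to 243 FPKM, with Cdh5 at most at 0.305 FPKM. Pecam1, which encodes CD31, was at 0.0853, 5.82 and 0.342 FPKM in AT2-PBS and at 6.29, 6.49 and 6.12 FPKM in AT2-BLM. Its ranges did not overlap, but it was not called (log2 change 1.76). Of 8 endothelial genes tested, Cd34 (1.48), Ramp2 (2.19) and Esam (0.57) rose (37.5%, against 13.1% of all genes), with Cd34 alone robust to scaling. Cells had been gated as negative for both CD31 and CD34. No red cell gene and no islet gene was called. The part of these cells in the gene changes above was not tested.

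The responses of the 5 largest rises and falls were set beside those of Atg5-/- AT2 cells, which share no sample with them. The bleomycin response differed between genotypes at an adjusted p under 0.05 (limma, interaction term) for 842 genes (7.89%). These 10 genes were chosen for their size in Atg5 f/f cells, which enters the difference. Atg5 RNA was not absent from the Atg5-/- samples, where its level spanned 6.72 to 10.1 FPKM. The Atg5 f/f samples spanned 6.01 to 12.5 FPKM for this gene. How far Atg5 was deleted in the sequenced cells was not tested. Phlda3 rose in both genotypes, by 4.84 here and by 1.33 in Atg5-/- cells, where it was already at 14.8 to 27.6 FPKM with PBS (difference 3.50, standard error 0.29, adjusted p = 0.000176). Saa3 (difference 4.94, adjusted p = 0.0129), Ly6a (6.18, adjusted p = 0.00583), Orm1 (6.14, adjusted p = 0.0147) and Nkx2-9 (4.84, adjusted p = 0.000616) were likewise higher in Atg5-/- AT2-PBS than in AT2-PBS, Ly6a at 368 to 754 FPKM. Summed liver transcripts there were 2152 to 3704 FPKM and leukocyte transcripts 2605 to 3690 FPKM. For Cst8 the difference was -2.60 (adjusted p = 0.00429), with a change of -1.05 in Atg5-/- cells that was not called there (adjusted p = 0.0544). For Pon1 the difference was -1.71 (standard error 0.65, adjusted p = 0.145), and it fell by 2.48 in Atg5-/- cells too. Jund (-2.47), Smoc2 (-1.99) and Vpreb3 (-1.21) did not pass the test of the difference, although Smoc2 did without Atg5-/- AT2-BLM replicate 3 (-2.45, adjusted p = 0.0277).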

How the data were processed

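RNA from sorted AT2 cells was sequenced as stranded mRNA libraries. The authors deposited FPKM per gene and sample. The submitters' notes list Trimmomatic 0.36, HISAT2 2.2.1.0, Cufflinks 2.2.1, HTSeq 0.9.1 and mm9, whereas the methods name another aligner, and whether a further normalization entered the FPKM is not given in the sources used here. Depth is unknown, so no count test was run. Gene symbols turned into dates were restored for 27 rows.

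log2(FPKM + 1) was fitted with limma 3.58.1 (R 4.3.3, mean-variance trend, Benjamini-Hochberg adjustment) over all 12 samples in 4 groups. Tables and figures were made with Python 3.11.15, pandas 2.3.3, numpy 2.4.6 and matplotlib 3.10.9, and the fit was tested on simulated data. The genes, lists and comparisons were chosen with earlier results of these data known. Genes were named by rule: the 12 largest called rises and falls with ranges apart and the 6 largest called changes of each list. Other members were named after their values were seen. Some lists share called members, among them Lcn2, Krt7, Cdkn1a, Plaur and Itgb6, so counts of different lists are not separate. Promoters were from RefSeq (8629 of 10675 genes matched). The samples are described as biological replicates. The labels state no pairing by replicate number, and the main fit used none. Deviations from the group means correlated at 0.19, 0.045 and 0.12 between samples of the same number. Between samples of different numbers the correlations spanned -0.18 to 0.079. Whether the numbers mark a shared factor was not tested.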

Additional observations from a re-analysis of the deposited data

Results flagged for a closer look

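The change after bleomycin differed between Atg5 f/f and Atg5-/- cells, by the test of the difference itself (limma, Benjamini-Hochberg adjustment), for 6 of the 10 genes examined. These 10 were chosen for the size of their change in Atg5 f/f cells, which is 1 term of the difference, so the count is a description, and 7.89% of all genes passed the same test. The difference, Atg5 f/f minus Atg5-/- on the log2 scale, was 4.94 for Saa3, 6.18 for Ly6a, 6.14 for Orm1, 3.50 for Phlda3, 4.84 for Nkx2-9 and -2.60 for Cst8. In Atg5-/- AT2-PBS, Nkx2-9 was already at 40.4, 34.8 and 35.7 FPKM and Orm1 at 52.5, 93.3 and 101.9 FPKM. Liver, leukocyte and airway transcripts were also high in that group (airway sums 25642 to 85699 FPKM), and their part in these differences was not tested.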

How the results depend on the processing

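The number of genes called depended on scaling, on the criterion, on single samples and on whether the Atg5-/- samples shared the fit. Quantile normalization gave 675 genes higher and 734 lower, median-ratio scaling 805 and 774, and a common sum 1039 genes called with 527 higher (845 higher with Sftpc left out of the sum, an alternative added after seeing the data). An unadjusted p under 0.05 gave 3031 genes (2202 higher, 829 lower) and a fold change of at least 2 gave 787 (581 higher, 206 lower). Leaving out each sample in turn gave 1027 to 1574 genes called, 760 to 1217 higher and 234 to 357 lower. A fit of only the 6 compared samples gave 1443 genes called (1094 higher, 349 lower), against 1856 with all 12 samples in the fit. The 6 compared samples without AT2-PBS replicate 1, also added later, gave 1220 genes with 270 lower. The cause was not tested. The replicate number as a block gave 1684 genes called, within 1.5 times the main count, and the numbers share no stated pairing.

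Signs that turned belonged to genes that were not called. Atg5 was at -0.082 (quantile), -0.062 (median-ratio) and -0.095 (common sum). Leaving out each sample in turn gave -0.18 to 0.29 for Atg5, -0.48 to 0.25 for Btg2, -0.42 to 0.30 for Hp, -1.11 to 0.94 for Ly6e and -0.85 to 1.07 for Il6. FPKM without counts give no counting error, and 3 samples a group limit the precision.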

Other observations

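Outside the lists, and chosen after their values were seen, several genes were called with every sample left out in turn and under all 3 scalings (limma, Benjamini-Hochberg adjustment). Among signalling genes that fell, Met, the receptor for hepatocyte growth factor, was at 22.2, 23.4 and 12.5 FPKM in AT2-PBS and at 5.37, 5.02 and 3.94 FPKM in AT2-BLM (log2 change -1.78). Notum, which inactivates Wnt proteins, was at 9.01, 7.08 and 9.71 FPKM and at 1.97, 1.78 and 0.364 FPKM (-2.09). Igfbp6, which binds insulin-like growth factors, was at 134, 159.7 and 170.2 FPKM and at 27.9, 30.0 and 37.5 FPKM (-2.25). No sample of the groups overlapped for these genes.

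Among rises, Slc26a4, the anion exchanger pendrin, was at 6.29, 6.57 and 6.42 FPKM in AT2-PBS and at 77.7, 81.3 and 42.5 FPKM in AT2-BLM (3.14). Psrc1, a microtubule-associated protein, was at 0.229, 0.388 and 0.614 FPKM and at 14.9, 11.5 and 14.3 FPKM (3.37, adjusted p = 5.79e-05).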
